A study of Mus musculus with 18 samples.

Results

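The genes of blood coagulation factors and fibrinogen were examined in maps of accessible chromatin from mouse liver. The 10 genes were Fga, Fgb and Fgg, which encode the 3 chains of fibrinogen, the zymogen genes F2, F7, F10, F11 and F12, the cofactor gene F5, and Serpinc1, which encodes antithrombin. They were taken by name from 22380 protein-coding genes of GENCODE M1. Every site that overlapped a gene body or lay within 20 kb of either end was kept, which gave 56 of the 51957 sites in the merged peak lists.

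FAIRE-seq, which isolates DNA that is not wrapped around nucleosomes after formaldehyde fixation and sequences it, had been performed on 18 mouse livers, 2 from each of 9 strains. Inbred strains were C57BL/6J, C3H/HeJ, A/J, DBA/2J, CBA/J, BALB/cJ and AKR/J. Crosses of C57BL/6J with C3H/HeJ gave rise to the other two, BXH2/TyJ and BXH19/TyJ, which are recombinant inbred. The mice were males that received chow up to 8 weeks of age and then 8 weeks of a diet high in fat and sucrose (HF/HS). The recombinant strains were kept and fed in the same way. No group without that diet was analysed, so all values below are from mice on the HF/HS diet. Whole liver was used, so that the share of cells with an open site and the degree of opening per cell cannot be told apart.

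The liver makes nearly all circulating fibrinogen, prothrombin and antithrombin, and hepatocytes release them into plasma as inactive precursors or inhibitors. In the coagulation cascade, serine proteases activate each other in turn until thrombin, made from prothrombin, cuts fibrinogen into fibrin. Antithrombin inhibits thrombin and factor Xa. The fibrinogen chain genes lie side by side on chromosome 3, and the fibrinogen chains are acute-phase proteins, whose production rises in inflammation.

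Each strain has 1 deposited list of peaks found in both of its replicates, so that a strain's value carries no replicate error and no test between strains was possible. A site was the union of peaks that overlapped or touched in any of the 9 lists, and it was called in a strain where that strain had a peak in it. Absence of a call does not show closed chromatin, since weaker signal can stay under the caller's cutoff. Each list has its own scale, and peaks are therefore given by their percentile, the rank of the caller's score within the strain's list (100 is the highest score). Sites within 1 kb of a transcript start were called promoter sites and all others distal. Sites are named below by the gene and the distance in bp of their midpoint from the gene's start, with negative numbers upstream. Shares are given with exact Clopper-Pearson intervals at the 95% level, which cover counting error only. Medians over sites are given, where an interval follows, with the order-statistic interval at the same level.

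Of the lists, A/J stood apart. Its called sites had a median GC content of 58.7%, against 53.3 to 55.1% in the other strains. Among all sites called in 8 of 9 strains, A/J was the missing strain at 60.3% and DBA/2J at 19.3%. DBA/2J had the shortest list (26769 peaks, against 29914 to 30613 in the other strains). Promoter peaks at marker genes were not limited to hepatocyte markers. All 6 hepatocyte markers (Alb, Ttr, Apoa1, Apob, Cyp2e1 and Tat) had a promoter site in at least 1 strain, 2 of them in all 9, with median percentiles of 10.8 to 72.5. None of 4 Kupffer cell and leukocyte markers (Ptprc, Emr1, Clec4f and Cd3e) had one. Endothelial markers had promoter sites in 1 to 5 strains (Pecam1, Stab2 and Kdr), and stellate cell markers in 1 strain each (Lrat and Des). Of the cholangiocyte markers, Sox9 had a site in all 9 strains and Krt19 had none, and of 3 genes of other tissues Ins2 had one in all 9 strains and Neurod1 and Myod1 had none.

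The sequences of 7 of the sites are shown here because the results below turn on them: the upstream site of F12, which was called in 5 strains at high percentiles and in 4 not at all, the promoter sites of F12, Fgg, Fga, F7 and Serpinc1, and a site beyond the end of F10 that was called in every strain. Each is the plus strand of mm9, which is C57BL/6J sequence, within 300 bases centred on the summit of the highest-ranked peak, less any bases that lie in an exon. The alleles of the other strains are not shown. Capitals mark matches to the letters TTGCNNAA (C/EBP), TGTTTAC or TGTTTGC (FOXA), AAAGTCCA or CAAAGGTCA (HNF4), GTTAATNAT (HNF1) and TTCNNNGAA (STAT) on either strand, where N is any base. A C/EBP and a FOXA match can share bases.
F12 site -2686, chr13:55530609-55530908, plus strand of mm9: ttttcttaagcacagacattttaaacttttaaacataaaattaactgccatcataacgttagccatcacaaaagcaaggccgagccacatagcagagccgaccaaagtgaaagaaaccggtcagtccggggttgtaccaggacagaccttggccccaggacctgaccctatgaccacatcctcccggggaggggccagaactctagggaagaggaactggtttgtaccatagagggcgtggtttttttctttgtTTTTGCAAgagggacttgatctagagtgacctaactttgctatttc
F12 site +79, chr13:55528155-55528353, plus strand of mm9: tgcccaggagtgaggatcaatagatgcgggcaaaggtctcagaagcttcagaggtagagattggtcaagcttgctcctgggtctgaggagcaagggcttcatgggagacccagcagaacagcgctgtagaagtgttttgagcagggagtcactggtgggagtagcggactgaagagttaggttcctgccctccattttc
Fgg site -169, chr3:82811510-82811780, plus strand of mm9: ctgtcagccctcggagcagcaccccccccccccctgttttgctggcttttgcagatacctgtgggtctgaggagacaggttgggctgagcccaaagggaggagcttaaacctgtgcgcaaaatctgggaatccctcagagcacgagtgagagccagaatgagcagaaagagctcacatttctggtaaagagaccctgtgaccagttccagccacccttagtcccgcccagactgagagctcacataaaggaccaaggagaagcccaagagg
Fga site -201, chr3:82829878-82830074, plus strand of mm9: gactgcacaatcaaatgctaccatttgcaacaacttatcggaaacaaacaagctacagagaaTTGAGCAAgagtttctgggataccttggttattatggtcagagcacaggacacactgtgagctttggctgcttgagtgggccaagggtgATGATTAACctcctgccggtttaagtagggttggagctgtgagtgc
F7 site -50, chr8:13025845-13026033, plus strand of mm9: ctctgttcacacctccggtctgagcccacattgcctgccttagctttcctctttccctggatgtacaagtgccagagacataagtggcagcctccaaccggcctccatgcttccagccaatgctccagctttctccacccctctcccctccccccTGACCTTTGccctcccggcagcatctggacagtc
F10 site +20174, chr8:13057355-13057654, plus strand of mm9: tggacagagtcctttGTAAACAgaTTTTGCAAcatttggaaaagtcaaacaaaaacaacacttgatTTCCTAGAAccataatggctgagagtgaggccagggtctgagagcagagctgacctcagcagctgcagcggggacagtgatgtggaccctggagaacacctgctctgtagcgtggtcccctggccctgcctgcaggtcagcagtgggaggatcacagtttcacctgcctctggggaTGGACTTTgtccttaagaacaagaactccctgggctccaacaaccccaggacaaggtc
Serpinc1 site -207, chr1:162908509-162908736, plus strand of mm9: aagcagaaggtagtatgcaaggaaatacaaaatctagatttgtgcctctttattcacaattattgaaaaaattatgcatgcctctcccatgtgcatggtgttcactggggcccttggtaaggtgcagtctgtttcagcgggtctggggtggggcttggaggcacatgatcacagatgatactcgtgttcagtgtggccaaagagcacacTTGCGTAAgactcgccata
The upstream F12 window holds 1 C/EBP match and the F10 window 1 match each to the FOXA, C/EBP, STAT and HNF4 letters. The Fga promoter holds a C/EBP and an HNF1 match, the F7 promoter an HNF4 match and the Serpinc1 promoter a C/EBP match. None of the 5 motifs was found in the Fgg window or in the window of the F12 promoter.

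The 56 sites comprised 15 at promoters of the 10 genes, 6 at promoters of other genes and 35 distal sites. A neighbouring gene's window also held 13 of them, since F7 and F10 are adjacent on chromosome 8, as are the fibrinogen genes. Peaks in all 9 strains were found at 14 of the 56 (25%, 95% interval 14.4 to 38.4%), compared with 26.6% of all sites. Another 14 were called in a single strain (25%, interval 14.4 to 38.4%), compared with 26.5% of all sites. Both shares were close to those of all sites. The single-strain sites had low percentiles, from 3.49 to 41.0, and came from A/J (5 sites), BALB/cJ and BXH19/TyJ (3 each), AKR/J (2) and DBA/2J (1).

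**Figure D1:**
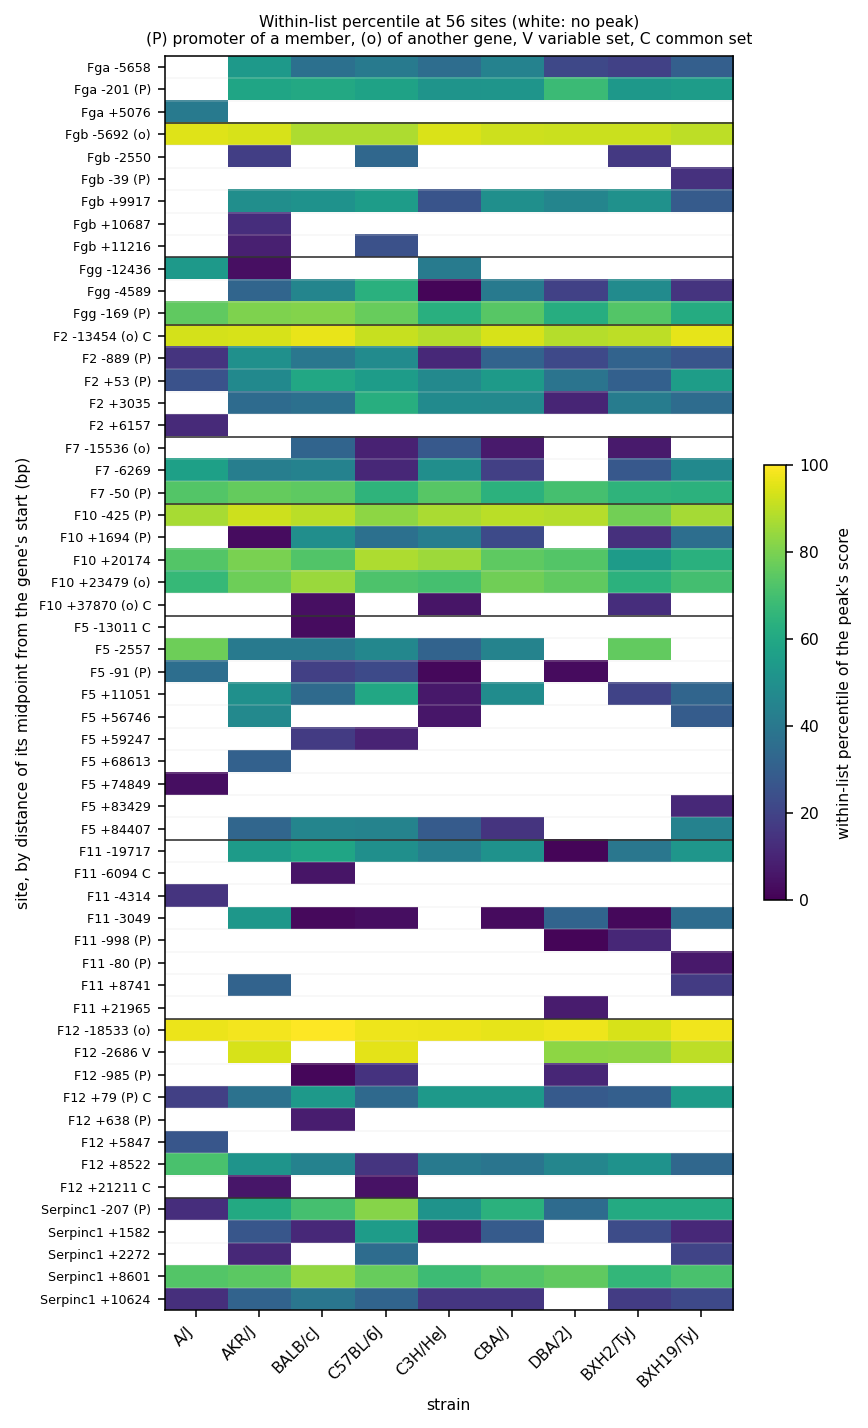
Within-list percentile of the peak at each of the 56 sites (rows, by gene and by distance in bp from the gene's start) in the 9 strains (columns), with white where no peak was called. The 14 rows filled in all columns include the promoter sites of Fgg, F2, F7, F10, F12 and Serpinc1, whereas the F12 site at -2686 is bright in 5 strains and white in 4.

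At promoters of the 10 genes, 7 of 15 sites were called in all 9 strains (46.7%, interval 21.3 to 73.4%), compared with 48.8% of all promoter sites. The median over the 15 sites of each site's median percentile was 36.3 (interval 10.7 to 61.0), against 51.5 over all promoter sites, which lies within the interval. Their median GC content was 52.5%, against 60.1%, and their median width 622 bp, against 826 bp. The part of GC content and width in these percentiles was not tested. Counted by gene, 6 of the 10 genes (F2, F7, F10, F12, Fgg and Serpinc1) had a promoter site in all 9 strains, compared with 40.8% of protein-coding genes, and none of the 10 lacked a promoter site, compared with 40.4%.

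**Figure D2:**
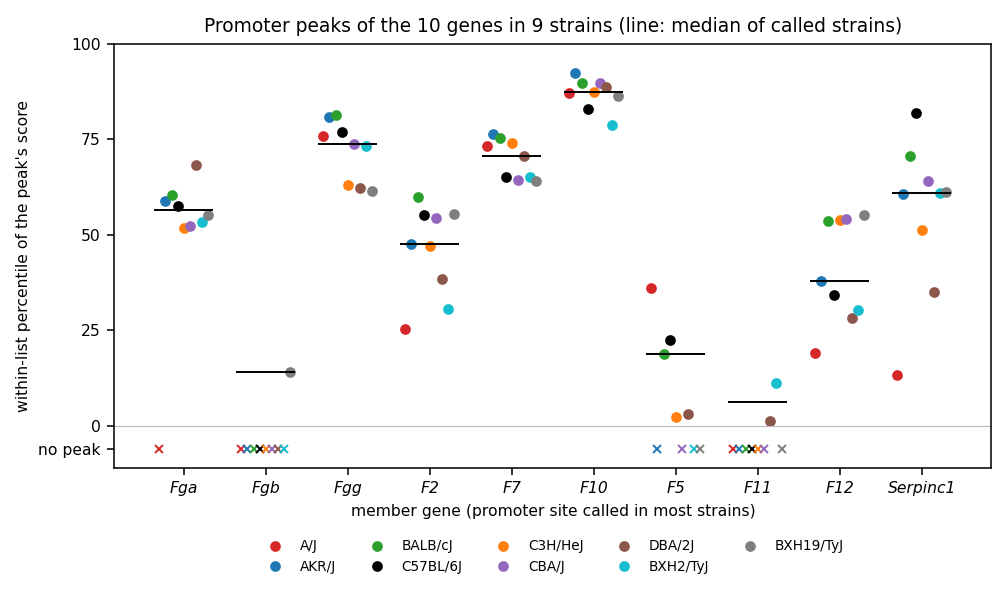
Within-list percentile of the promoter site called in most strains for each of the 10 genes, with 1 point per strain, a line at the median of the called strains and a cross where no peak was called. F10 lies highest (78.8 to 92.3), Fgb and F11 have peaks in 1 and 2 strains, and the points of Serpinc1 are spread most widely, from 13.2 in A/J to 82.0 in C57BL/6J.

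Among the fibrinogen genes, the Fgg promoter had the highest median percentile, although in DBA/2J the Fga promoter ranked above it. The Fgg promoter site (chr3:82811302-82811923, 169 bp upstream by its midpoint) was called in all 9 strains, from 61.5 in BXH19/TyJ to 81.3 in BALB/cJ with a median of 73.9. The 3 lowest strains, BXH19/TyJ, DBA/2J (62.2) and C3H/HeJ (63.1), lay close together, and the other 6 were between 73.3 and 81.3. The promoter site of Fga, the alpha chain gene (chr3:82829469-82830280), was called in 8 strains, with percentiles of 51.8 in C3H/HeJ to 68.2 in DBA/2J and a median of 56.4. A/J had no peak there. At Fgb, the beta chain gene, a promoter site (chr3:82853574-82853954) was called in BXH19/TyJ only, at a percentile of 14.2. The fibrinogen genes therefore had promoter sites in 9, 8 and 1 strains.

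Of the 8 distal sites of the fibrinogen genes, 3 were called in 8 strains and were missing in A/J, and the other 5 were called in 1 to 3 strains. The site between Fga and Fgb (chr3:82843568-82844048, downstream of both genes) had the highest median percentile of their distal sites, 49.6, and ranged from 26.0 in C3H/HeJ to 55.1 in C57BL/6J. C3H/HeJ and BXH19/TyJ (28.7) were low at this site and the other 6 called strains were between 45.4 and 55.1. The site 4589 bp upstream of Fgg ranged from 1.27 in C3H/HeJ to 63.4 in C57BL/6J, and the site between Fgg and Fga (chr3:82824093-82824741) from 19.3 in BXH2/TyJ to 53.5 in AKR/J.

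The remaining named sites of this cluster differed in presence. A GC-rich site 12436 bp upstream of Fgg (GC content 61.9%) was called in A/J (54.1), C3H/HeJ (41.5) and AKR/J (4.20). A site 2550 bp upstream of Fgb was called in C57BL/6J (33.4), AKR/J (18.6) and BXH2/TyJ (16.5). A/J alone had a peak over a coding exon of Fga, at a percentile of 41.0. Beyond Fgb, the promoter of the neighbouring gene Plrg1 was called in all 9 strains at 87.6 to 95.2, above every site of the fibrinogen genes.

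**Figure D3:**
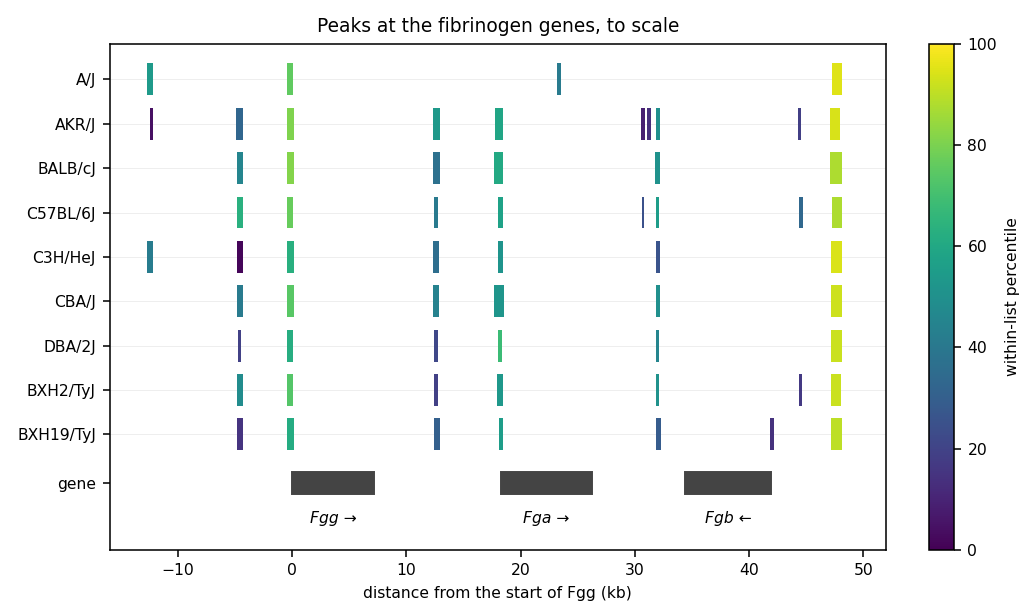
Peaks of the 9 strains along the fibrinogen genes, by distance in kb from the start of Fgg, drawn to scale and coloured by within-list percentile, with gene bodies as dark bars and arrows for the direction of transcription. The Fga promoter peak and the peaks at Fgg -4589, Fga -5658 and Fgb +9917 are present in 8 strains and absent in A/J. Only BXH19/TyJ has a peak at the start of Fgb.

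F2, F7 and F10 encode prothrombin, factor VII and factor X, zymogens that depend on vitamin K for carboxylation, and each had a promoter site in all 9 strains. The F10 promoter site (chr8:13035721-13038046) was the widest of the promoter sites, 2326 bp, and had the highest percentiles, from 78.8 in BXH2/TyJ to 92.3 in AKR/J with a median of 87.4. The F7 promoter site (chr8:13025361-13026607) ranged from 64.2 in BXH19/TyJ to 76.4 in AKR/J with a median of 70.6. Its 9 percentiles lay within 12.2 points, whereas sites that were called in all 9 strains and whose median percentile was within 10 points of it had a median range of 34.2. F7 was thus the promoter with the narrowest range of percentiles among the 7 called everywhere, followed by F10 with 13.6 points. For F10, which ranks higher, the median range at sites of like level was 16.9 points. The summits of the F7 peaks, however, were spread over 375 bp. Those of C3H/HeJ, BXH2/TyJ and BXH19/TyJ lay outside the F7 window printed above.

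F2 had 2 promoter sites called in all 9 strains. The site over the start (chr2:91476229-91476808) ranged from 25.3 in A/J to 60.0 in BALB/cJ with a median of 47.5, and the site 889 bp upstream ranged from 11.5 in C3H/HeJ to 50.2 in AKR/J with a median of 31.8. A/J was lowest at the start and next to lowest upstream (15.0). A further promoter site of F10 (chr8:13038138-13039866), whose near edge lay 830 bp after the start, was called in 7 strains at 3.28 to 49.6 and was missing in A/J and DBA/2J.

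The most highly ranked distal site of these 3 genes lay just beyond the end of F10 (chr8:13057010-13057955). It was called in all 9 strains, from 55.0 in BXH2/TyJ to 87.7 in C57BL/6J with a median of 73.4, and it is the F10 window printed above. The summits of the 9 peaks lay within 48 bp. Downstream of it, the promoter of Proz, which encodes the vitamin K-dependent protein Z, was called in all 9 strains at 64.3 to 85.0. A site 6269 bp upstream of F7, within an exon of Mcf2l, was called in 8 strains at 11.2 in C57BL/6J to 56.8 in A/J and was missing in DBA/2J. In an intron of F2, a site was called in 8 strains at 10.3 in DBA/2J to 62.7 in C57BL/6J and was missing in A/J.

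F5, the gene of the cofactor of factor Xa, had a promoter site in 5 strains. A transcript start of Gm16548 also lay within 1 kb of this site. The site was called in A/J (36.2), C57BL/6J (22.4), BALB/cJ (18.8), DBA/2J (2.98) and C3H/HeJ (2.33). It was not called in AKR/J, CBA/J and both recombinant strains (chr1:166081478-166082279). A/J, which lacked the Fga promoter peak, was thus highest at the F5 promoter. A site 2557 bp upstream of F5, in an exon of Selp, the gene of P-selectin, was called in 7 strains. A/J (77.8) and BXH2/TyJ (76.0) were high there, the other 5 called strains were between 32.0 and 46.3, and DBA/2J and BXH19/TyJ had no peak. Of the 10 sites of F5, none was called in all 9 strains and 4 were called in a single strain. Over all sites these shares were 26.6% and 26.5%. Distal sites were 9 of the 10, and 14.4% of all distal sites were called in all 9 strains.

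F11 and F12 belong to the contact pathway, in which factor XII activates factor XI. Their promoters differed. F11 had promoter sites in few strains, with a peak over the start in BXH19/TyJ (6.92) and peaks 998 bp upstream in BXH2/TyJ (11.1) and DBA/2J (1.18). Of 8 sites around F11, none was called in all 9 strains, compared with 26.6% of all sites. Distal sites were 6 of the 8, and over all distal sites the share was 14.4%. The highest median was at a site 19717 bp upstream, in an intron of the prekallikrein gene Klkb1, which was called in 8 strains at 1.18 in DBA/2J to 58.8 in BALB/cJ with a median of 50.4 and was missing in A/J. A site 3049 bp upstream of F11 was called in 7 strains. It was at 53.1 in AKR/J, 35.3 in BXH19/TyJ and 32.2 in DBA/2J, and between 2.13 and 3.57 in BALB/cJ, C57BL/6J, CBA/J and BXH2/TyJ, with no peak in A/J and C3H/HeJ.

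At F12 the promoter and the upstream site behaved differently across strains. The promoter site (chr13:55527767-55528384) was called in all 9 strains, from 19.1 in A/J to 55.3 in BXH19/TyJ. CBA/J (54.1), C3H/HeJ (54.0) and BALB/cJ (53.7) were close to BXH19/TyJ, and AKR/J (37.9), C57BL/6J (34.1), BXH2/TyJ (30.4) and DBA/2J (28.2) lay between. The upstream site (chr13:55530578-55531103), between genes, was called in C57BL/6J (95.9), AKR/J (94.0), BXH19/TyJ (90.0), BXH2/TyJ (83.6) and DBA/2J (83.1). The other 4 strains, A/J, BALB/cJ, C3H/HeJ and CBA/J, had no peak there.

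Set side by side, BALB/cJ, C3H/HeJ and CBA/J, which lacked the upstream peak, were at 53.7 to 54.1 at the promoter, and AKR/J, C57BL/6J, DBA/2J and BXH2/TyJ, which had it, were at 28.2 to 37.9. A/J and BXH19/TyJ went the other way, so that no order held over the 9 lists. The promoter percentiles spanned 36.2 points, against a median range of 47.3 points at sites of like level. By read counts the promoter site is in the authors' set of most common sites, described below. Around F12 only the promoter of Grk6, 18533 bp upstream, ranked higher in the 5 called strains (93.8 to 99.6 over all 9). The summits of the peaks at the upstream site lay within 30 bp, and each peak was at least 228 bp wide, so the same stretch was called in each. Further promoter sites of F12 were weak, with a peak at +638 in BALB/cJ (8.17) and at -985 in C57BL/6J (14.7), DBA/2J (10.7) and BALB/cJ (1.85).

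**Figure D4:**
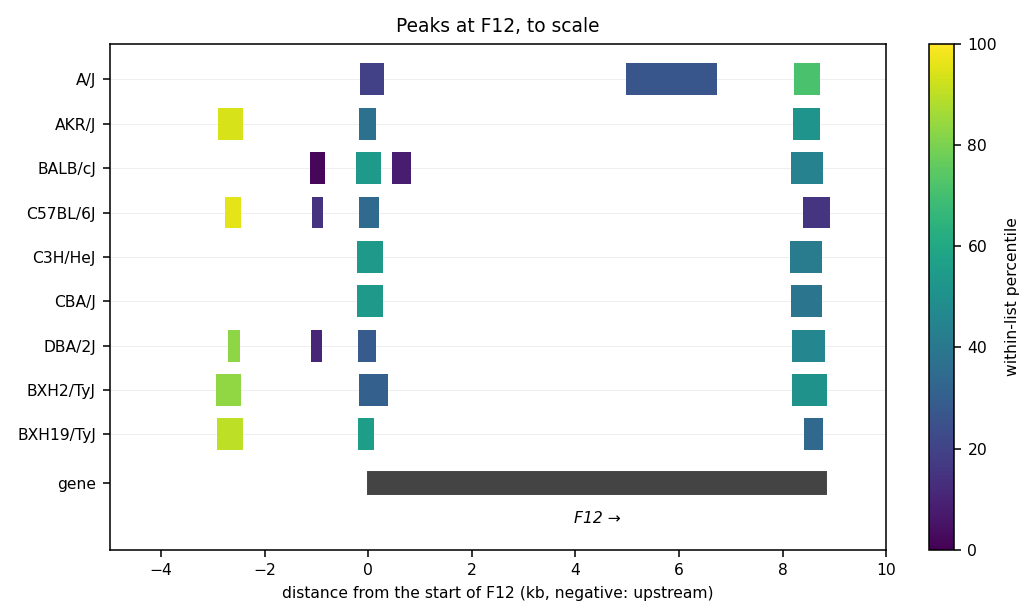
Peaks of the 9 strains around F12, by distance in kb from the start of the gene (negative values upstream), drawn to scale and coloured by within-list percentile. The upstream peak is present in AKR/J, C57BL/6J, DBA/2J, BXH2/TyJ and BXH19/TyJ and absent in the other 4 strains, whereas the promoter peak is present in all 9.

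Serpinc1, the inhibitor of the cascade, had a promoter site in all 9 strains (chr1:162908207-162908853) with the widest range of the promoters called everywhere. It was at 82.0 in C57BL/6J, 70.6 in BALB/cJ, 64.0 in CBA/J, 61.1 in BXH19/TyJ, 61.0 in BXH2/TyJ, 60.8 in AKR/J, 51.2 in C3H/HeJ, 35.0 in DBA/2J and 13.2 in A/J. The range was 68.8 points, against a median range of 41.3 points at sites of like level. A/J was lowest by 21.8 points, and without A/J the range was 47.0 points. The summits of the 9 peaks nevertheless lay within 15 bp. An intronic site 8601 bp downstream of the start was called in all 9 strains at 66.1 in BXH2/TyJ to 83.7 in BALB/cJ, and here A/J (73.3) was at the median. Another intronic site, at +1582, was called in 7 strains at 6.64 in C3H/HeJ to 55.4 in C57BL/6J and was missing in A/J and DBA/2J.

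Distal sites were called in all 9 strains less often than promoter sites, both here and over all sites. Of 35 distal sites, 3 were called in all 9 strains (8.57%, interval 1.8 to 23.1%), compared with 14.4% of all distal sites. These were the sites beyond the end of F10, in the intron of Serpinc1 at +8601, and in an intron of F12 at +8522, where A/J was highest (71.2) and C57BL/6J lowest (15.3). The median of the site medians was 26.7 (interval 16.8 to 38.6), against 24.3 over all distal sites.

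The share called everywhere depended on A/J. Of the 8 sites called in 8 of 9 strains, A/J was the missing strain at 6 and DBA/2J at 2, which is 75% and 25% and compares with 60.3% and 19.3% over all such sites. The 6 sites had a median GC content of 47.2%. When A/J was left out, 8 of 30 distal sites were called in all 8 remaining strains (26.7%), compared with 23.8% of all distal sites. At promoters the share without A/J was 8 of 15 (53.3%), compared with 57.7%, and over all member sites 20 of 52 (38.5%), compared with 35.6%. At the 14 sites called in all 9 strains, A/J had the lowest percentile at 3, compared with 30.1% of all sites called in all 9. These 3 were the promoter sites of F2, F12 and Serpinc1. BXH2/TyJ had the lowest percentile at 5 of the 14, and its share over all sites called in all 9 was not computed.

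Counted by strain, the share of the 56 sites with a peak ran from 42.9% in A/J (24 sites, interval 29.7 to 56.8%) to 67.9% in AKR/J (38 sites, interval 54 to 79.7%). The shares of all sites were 54.5% in A/J and 54.3% in AKR/J. C57BL/6J (66.1%, against 54.9%), BALB/cJ (64.3%, against 56.4%) and BXH19/TyJ (60.7%, against 55.4%) were above the share of all sites. C3H/HeJ (57.1%, against 56.1%), BXH2/TyJ (57.1%, against 54.8%) and DBA/2J (46.4%, against 46.7%) were near it, and CBA/J was below it (51.8%, against 56.9%). The interval of each of the 9 strains included the share of all sites. These intervals take the 56 sites as independent, although neighbouring sites share a locus, so this is a description and not a test. In A/J the member sites with a peak had a median GC content of 55.4% and those without one 47.2%, while in the other strains the sites with a peak had medians of 48.5 to 52.7%. By the authors' totals, reads left after filtering were among the fewest in A/J and among the most in AKR/J. They were also few in BALB/cJ, whose share was above that of all sites. The parts of GC content and read depth in the calls were not tested.

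**Figure D5:**
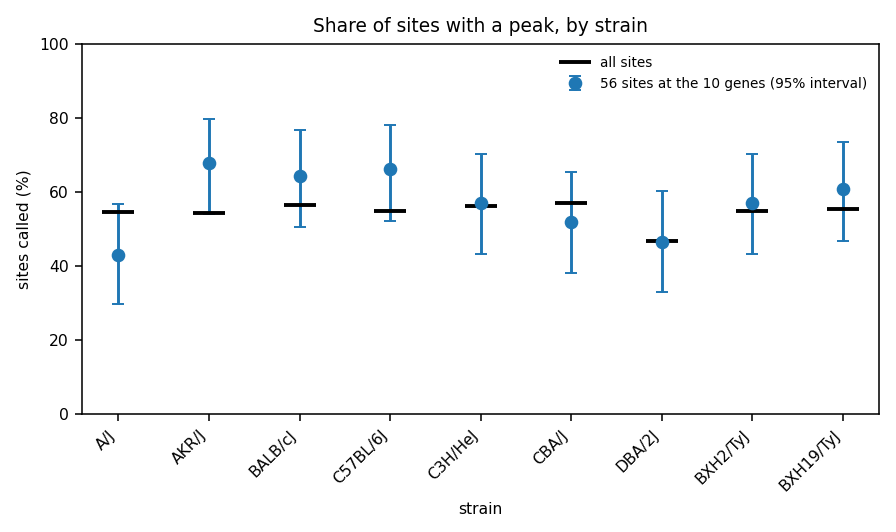
Percentage of the 56 sites with a peak in each strain (points, with exact 95% intervals) beside the percentage of all sites with a peak in that strain (black bars). A/J is lowest at 42.9% and AKR/J highest at 67.9%, and DBA/2J is low both at the 10 genes and over all sites.

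The authors' sets of most variable and most common sites, 2539 each over the inbred strains, met the 56 sites at 7 places. The variable set held 1 of the 56 sites, compared with 4.87% of all sites, and it was the upstream site of F12, whose deposited entry spans chr13:55530583-55531050. By gene, 1 of the 10 genes had a variable site within 20 kb, compared with 13.8% of protein-coding genes. The common set held 6 sites, compared with 4.89% of all sites. Of these, the F12 promoter and the promoter of Arhgap1 and Zfp408 near F2 (88.7 to 96.9) were called in all 9 strains. F12 thus had an entry of each set within 3 kb of its start.

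The other 4 sites of the common set were called in few strains and at low percentiles. They lay in an intron of Selp upstream of F5 (BALB/cJ, 3.49), in an intron of Slc34a1 beyond F12 (AKR/J at 6.00 and C57BL/6J at 4.93), at the promoter of Gm17023 beyond F10 (BALB/cJ, 4.12, C3H/HeJ, 5.68, and BXH2/TyJ, the highest of the 3) and upstream of F11 (BALB/cJ, 5.53). Membership of this set was based on read counts, so a site in it could be called in 1 strain only. Without the BALB/cJ list the count was 4, since 2 of the sites rest on it.

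The recombinant inbred strains carry segments of C57BL/6J and C3H/HeJ. These parents had a peak at 29 of the 56 sites in common, neither had one at 16, and they differed at 11. Of the 11, C57BL/6J had the peak at 8 and C3H/HeJ at 3. BXH2/TyJ and BXH19/TyJ each had the C57BL/6J state at 5 of the 11 sites, compared with 44.6% and 43.6% of all sites that differed between the parents. Both recombinant strains had a peak at 2 of the 11, the upstream site of F12 and the F11 site at -3049. The F11 site was at 3.57 in C57BL/6J, 2.13 in BXH2/TyJ and 35.3 in BXH19/TyJ. At F12 both had the C57BL/6J state with percentiles of 83.6 and 90.0, against 95.9 in C57BL/6J and no peak in C3H/HeJ. Which parent each strain's segment came from was not tested.

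The windows of 300 bases at the 15 promoter and 35 distal sites were searched for the 5 motifs. C/EBP letters were found at 4 of 15 promoter sites (26.7%) and 13 of 35 distal sites (37.1%), compared with 8.41% of all promoter and 16.1% of all distal sites. FOXA letters were found at 1 promoter (6.67%) and 7 distal sites (20%), compared with 6.77% and 14.7%. STAT letters were found at 2 promoter (13.3%) and 4 distal sites (11.4%), compared with 5.91% and 8.85%. HNF4 letters were found at 1 promoter (6.67%) and 2 distal sites (5.71%), compared with 2.01% and 5.76%, and HNF1 letters at 1 promoter (6.67%) and no distal site, compared with 0.554% and 1.74%. The C/EBP promoters were those of Fga, Fgb, F11 and Serpinc1. Of these, the Fgb and F11 sites were called in BXH19/TyJ only, at percentiles of 14.2 and 6.92. Median GC content of the distal sites was 47.7%, against 51.7% over all distal sites. At promoter sites it was 52.5%, against 60.1% over all promoter sites. The part of GC content in these shares was not tested.

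Other genes of haemostasis were described from a list of 31, all of which were found. A promoter site was called in all 9 strains for 12 (38.7%, against 40.8% of protein-coding genes) and in 1 to 8 strains for 15. It was called in none for 4, compared with 40.4% of protein-coding genes. The 4 without one were F9, F13a1, Fgl1 and Tfpi, which encode factor IX, the factor XIII A chain, a fibrinogen-like protein and tissue factor pathway inhibitor. All 4 genes of the vitamin K cycle and factor secretion (Ggcx, Vkorc1, Lman1 and Mcfd2) had a promoter site in all 9 strains, with median percentiles of 93.5 to 97.7. By group, this was so for 1 of 10 other zymogens, cofactors and subunits, 3 of 9 anticoagulants, 3 of 7 genes of fibrinolysis and Apoh. A variable site lay within 20 kb of 2 of the 31 genes, Fgl1 and Serpinf2, compared with 13.8% of protein-coding genes. Near Fgl1 there were 2 variable sites, each called in C57BL/6J and BXH2/TyJ, and near Serpinf2, the gene of the plasmin inhibitor alpha-2-antiplasmin, 1 that was called in every strain but A/J.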

How the data were processed

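FAIRE-seq reads of each library were aligned by the authors with bowtie1 to versions of mm9 that carry the strain's SNPs, and reads with a single location were kept. Peaks were called with F-seq in each library, and those reproducible between the 2 replicates by IDR were deposited as 1 list per strain. Improperly paired reads and PCR duplicates were removed. Reads of the recombinant strains were aligned to mm9 and to the C3H/HeJ version, and which alignment the lists rest on is not given in the sources used here, nor are the IDR threshold and the tools' versions. Each deposited peak carries the caller's score, and no scaling of it between lists is described. The summit offset and positions were used as the authors deposited them. The sets of 2539 variable and 2539 common sites are positions that the authors ranked with DESeq on quantile-normalized counts in the 7 inbred strains. The authors state read totals per library, which differ between strains. Apart from the order of some of these totals, given above, they were not used here. Reads and counts per site were not used either, so the number of reads behind a peak is unknown.

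Peaks of the 9 lists were merged where they overlapped or touched, and scores were turned into percentiles within a list (the highest where a strain had several peaks in a site). Sites were in a set with an overlap of at least 1 bp. Gene models were those of GENCODE M1, whose assembly, NCBIM37, is mm9. In simulated lists the merged sites equalled a union built base by base in 50 of 50 runs. The members, the gene lists, the motifs and the rules were chosen with earlier results of these data known. The text names every promoter site of a member, every site in a deposited set, the distal site with the highest median percentile of each member and, among distal sites in 2 to 7 strains, that with the highest percentile. A few further distal sites, the F12 site at +8522 and the sites missing in A/J at the fibrinogen genes among them, were named after their values were seen. Python 3.11.15 was used with pandas 2.3.3, numpy 2.4.6, pysam 0.24.0, scipy 1.17.1 and, for figures, matplotlib 3.10.9.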

Additional observations from a re-analysis of the deposited data

How the results depend on the processing

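Each list pools its replicates, so strains were left out in turn in place of replicates. No paired analysis was possible because the lists hold no replicates. Of 153 alternative values, 11 moved beyond 1.5 times a count or beyond the interval of a share or median. With the 20000 highest-ranked peaks of each list, 34 sites were left, 2 of them in the common set. Then 3 of 10 promoter sites (30%) and 2 of 20 distal sites (10%) were called in all 9 strains. Percentiles were still those of the full lists, so this cut removes the low ones and raises the medians by construction. The medians were 46.9 at distal and 55.5 at promoter sites. A flank of 5 kb left 1 site in the common set, and a flank of 50 kb put 2 sites in the variable set. When a peak had to cover at least 50% of a site, 8.93% of all member sites, 20% of promoter sites and 0% of distal sites were called in all 9 strains, so the shares depend on that choice. With strains without a peak set to 0, the median percentile of distal sites was 0. This follows from the calls, since distal sites were called in a median of 3 strains.

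Leaving out 1 strain gave 52 to 57 sites, of which 24.6 to 38.5% were called in all remaining strains, 46.7 to 53.8% at promoters and 8.33 to 26.7% at distal sites, with the highest value for all sites and for distal sites without A/J. Sites in a single strain made up 17.3 to 29.8%. The variable set held 1 site in each case and the common set 4 to 6, with 4 without BALB/cJ. The median percentile was 29.5 to 36.6 for promoter and 25.7 to 31.1 for distal sites. Other promoter distances, the merging of gaps of up to 100 bp, the 7 inbred lists alone, the lowest of several peaks and an overlap over at least 50% of entry and site moved none of the values recomputed under them. The lists limit what is seen to peaks above the caller's threshold, and differences below it could not be detected.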

Other observations

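At some member sites a recombinant strain differed from both parents. Of 29 sites with a peak in both C57BL/6J and C3H/HeJ, BXH2/TyJ had no peak at 2 and BXH19/TyJ none at 3. Of 16 sites without a peak in either parent, BXH2/TyJ had a peak at 1 and BXH19/TyJ at 4. The promoter site of Fgb, at a percentile of 14.2, and the promoter site over the start of F11, at 6.92, are among the 4, and the F5 promoter, called in both parents at 22.4 and 2.33, is among the sites without a peak in either recombinant strain. Higher in the parents were the F5 site at -2557, with no peak in BXH19/TyJ (46.3 in C57BL/6J and 32.0 in C3H/HeJ), and the F5 site at +84407, with no peak in BXH2/TyJ (44.8 and 28.8). No replicate spread is available for any of these sites. The same counts over all sites were not taken, so whether they are particular to the 10 genes is unknown.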
